A study of Mus musculus with 8 samples.

Results

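Loss of one or the other methyltransferase of Polycomb repressive complex 2 was compared in mouse acute myeloid leukaemia. The comparison set 2 RNA sequencing libraries of Ezh1+/+ Ezh2-/- cells (called Ezh2-lost) against 2 libraries of Ezh1-/- Ezh2+/+ cells (called Ezh1-lost). These are 4 of the 8 libraries of the study, chosen by their labelled genotypes. The other 4 libraries were Ezh1+/+ Ezh2+/+ (both-kept) and Ezh1-/- Ezh2-/- (both-lost), with 2 of each. All libraries came from c-kit+ leukaemia cells of bone marrow of C57BL/6 mice, taken 7 days after treatment, and their names carry the word Moz. Both groups with Ezh2 lost had received tamoxifen by intraperitoneal injection, 10 mg/kg/day in 5 doses, and both groups with Ezh2 kept had received the corn oil carrier. The series design describes Ezh2 in the oil groups as floxed, where the genotype label says Ezh2+/+, so the Ezh1-lost cells carry intact floxed alleles by that account. Of 31574 rows in the table, 18051 had at least 2 libraries above the lowest value the table allows and were tested.

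Polycomb repressive complex 2 methylates lysine 27 of histone H3 and so keeps genes silent, among them genes of other lineages, Hox genes and the CDK inhibitors of the Cdkn2a locus. Ezh2 and Ezh1 are its alternative catalytic subunits, joined with Suz12 and Eed, and Ezh2 has the stronger enzymatic activity. Ezh2 is the form of dividing cells, Ezh1 is also found in resting cells, and each can take over some of the targets of the other.

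The labels do not say whether the 2 libraries of a group come from separate animals, so each p measures the spread between these libraries, which may be technical. In this comparison Ezh1 genotype, Ezh2 genotype and tamoxifen differ together, and the Ezh1 genotypes may come from separate leukaemias. These cannot be told apart in a direct contrast of Ezh2-lost with Ezh1-lost cells. Each value is a log2 normalized read number minus the median of that gene across all 8 libraries, and a difference is always Ezh2-lost minus Ezh1-lost, with the standard error of the limma fit. A gene was called where its adjusted p lay under 0.05. With 2 libraries against 2 an exact permutation test cannot give a p under 0.333, so the calls rest on a model of the spread. It pooled each gene's spread over all 4 groups (residual degrees of freedom 4) and drew less on other genes (prior 1.24). The median SD between replicates was 0.14 in Ezh2-lost and 0.12 in Ezh1-lost libraries. The Ezh1-lost libraries were the shallowest, with 1717 and 1668 of the tested rows at the floor against 1051 and 985 in Ezh2-lost libraries. Ezh2-lost replicate 2 stood apart from replicate 1 in genes of other marrow cells, so results that touch those genes are given with and without it. Genes named below stayed called in each of the 8 fits that left out 1 library, unless an adjusted p without a library is given. Leaving out either both-kept library gave the same result, as did leaving out either both-lost library, so the 8 fits are not all distinct checks. When only the 4 libraries compared were fitted, 48 of the 105 named genes that were called no longer were.

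The targeted genes check the labels. Ezh1 (mm10 chromosome 11, 101191115 to 101226450) lay at 1.55 and 1.63 in the Ezh2-lost libraries and at -1.75 and -1.94 in the Ezh1-lost libraries. The difference was 3.43 ± 0.10, or 10.8-fold, in the direction of the labels (limma adjusted p = 0.00076). Ezh2 (chromosome 6, 47530274 to 47595338) lay at 0.09 and 0.03 in Ezh2-lost and at -0.12 and -0.03 in Ezh1-lost libraries, a difference of 0.13 ± 0.08 that was not called (adjusted p = 0.312). Its RNA was thus not lower in the cells labelled Ezh2-/- than in those labelled Ezh2+/+. A value summed over the gene does not resolve deleted exons, so it checks nothing about the deletion, and Ezh2-lost and Ezh2-/- here mean the label.

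The labelled cells were checked too. Cd34, Ptprc and Kit, the receptor used to sort the cells, were counted as above the floor in all 8 libraries. No 2 libraries tied at their lowest values, a count that would miss 1 library at the floor. Kit lay at -0.71 and -0.25 in Ezh2-lost and 0.53 and 0.64 in Ezh1-lost libraries. It was 2.09-fold lower in Ezh2-lost cells (difference -1.06 ± 0.17, adjusted p = 0.0151), and this call ended without Ezh1-lost replicate 1 (adjusted p = 0.056) or replicate 2 (0.0722). The adjusted p for Kit ran from 0.0112 to 0.0837 over all alternatives. Centring on the gene's median removes the level, so the abundance of Kit RNA cannot be given. In bulk RNA, fewer cells of a type and less RNA per cell cannot be told apart.

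Over the whole transcriptome the contrast was wide. Of the 18051 genes tested, 4068 were called, which is 22.5%, with 2224 higher in Ezh2-lost cells (12.3%) and 1844 lower (10.2%). In 65.1% of genes every library of one group lay above every library of the other, and in 34.4% it was Ezh2-lost that lay above. The higher genes differed by more, since 1545 of them passed 2-fold against 693 of the lower ones, and 152 against 53 passed 16-fold. In 251 of the called genes both Ezh1-lost libraries were at the floor, and in 44 both Ezh2-lost libraries were. The count fell to 1966 and 1846 without Ezh2-lost replicate 1 or 2, and to 1890 and 1482 without Ezh1-lost replicate 1 or 2, and 958 genes were called in every such fit, 621 of them higher and 337 lower. After quantile normalization the split turned, with 1613 higher and 2308 lower, so 41.1% of the called genes were higher against 54.7% in the values as deposited.

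Early B-lineage genes were the group with the largest difference, and they were lower in Ezh2-lost than in Ezh1-lost cells. Of 16 genes of the B cell list tested, 10 were called lower and 1 higher (68.75%, beside 22.5% over all genes). The list's median difference was -4.0 against 0.04 over all genes tested. The genes that build and carry the pre-B cell receptor come first. Igll1, the lambda5 part of the surrogate light chain (chromosome 16, 16860671 to 16863985), lay at -3.10 and -2.91 in Ezh2-lost and at 4.79 and 3.30 in Ezh1-lost libraries. It was 133-fold lower in Ezh2-lost cells (difference -7.05 ± 0.68, adjusted p = 0.00525). Its partner Vpreb1, which lies beside it on chromosome 16, lay at -2.99 and -2.55 against 4.36 and 3.44, a 102-fold difference (-6.67 ± 0.42, adjusted p = 0.00293). In both genes the groups were far apart, and both-lost libraries lay on the Ezh1-lost side, at 3.30 and 1.73 for Igll1 and 3.37 and 2.55 for Vpreb1.

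The enzymes of antigen receptor rearrangement showed the same order of groups. Rag1, a subunit of the recombinase, lay at -3.63 and -2.02 in Ezh2-lost and at 4.63 and 3.19 in Ezh1-lost libraries (difference -6.73 ± 0.67, adjusted p = 0.00552). Dntt, the terminal transferase that adds untemplated bases at the joins, lay at -1.60 and -1.52 against 3.61 and 3.77 (difference -5.25 ± 0.34, adjusted p = 0.00302). Both genes were lowest in both-kept libraries, where Rag1 was at its floor of -6.53 in both. Rag2, the other recombinase subunit, differed by less (-2.77 ± 0.59, adjusted p = 0.0294), and its call ended without Ezh1-lost replicate 1 (adjusted p = 0.0603), Ezh2-lost replicate 1 (0.0998) or 2 (0.112), either both-lost library (0.0547) or either both-kept library (0.0505), with 0.0172 to 0.112 over all alternatives.

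The transcription factors that commit cells to the B lineage were lower as well. Ebf1 lay at -2.92 and -1.75 in Ezh2-lost and at 3.82 and 2.53 in Ezh1-lost libraries (difference -5.51 ± 0.60, adjusted p = 0.00659). Pax5 lay at -2.25 and -2.83 against 5.29 and 3.12 (difference -6.75 ± 0.81, adjusted p = 0.00815). The Ezh2-lost value of Pax5 rests on about 1 read pair in both libraries together against about 139 in Ezh1-lost libraries, a ratio of 192.5 with an exact 95% counting interval of 33.99 to 7658. The groups did not overlap in Ebf1 and Pax5, as in 65.1% of all genes tested. The rule that placed Pax5 among the largest differences required this.

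Among surface proteins of B cells the picture was mixed. Cd79a, the signalling chain of the B cell receptor, was lower by -3.78 ± 0.52 on the log2 scale (adjusted p = 0.0109), although not called without Ezh2-lost replicate 1 (0.0531), with 0.00616 to 0.0531 over all alternatives. Vpreb3 was lower by -4.72 ± 0.75 (adjusted p = 0.0148) and was not called without Ezh1-lost replicate 1 (0.0669) or 2 (0.055), with 0.0114 to 0.0744 over all alternatives. Cd22, a receptor of more mature B cells that myeloid cells can also carry, was the exception: it was 7.37-fold higher in Ezh2-lost cells, at 1.63 and 2.68 against -0.29 and -1.16 (difference 2.88 ± 0.43, adjusted p = 0.0131, and 0.0536 without Ezh1-lost replicate 2, with 0.00338 to 0.0831 over all alternatives). The 5 members not called were Cd79b, Ighm, Il7r, Ms4a1 and Blnk, with differences of -0.21, 1.13, -0.55, 2.3 and -0.05. Members of the list beyond Igll1, Vpreb1, Dntt and Pax5 are named here after their values were seen. The list's count of lower genes ran from 7 to 9 over the fits without 1 library, and its median from -4.34 to -3.67.

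**Figure D1:**
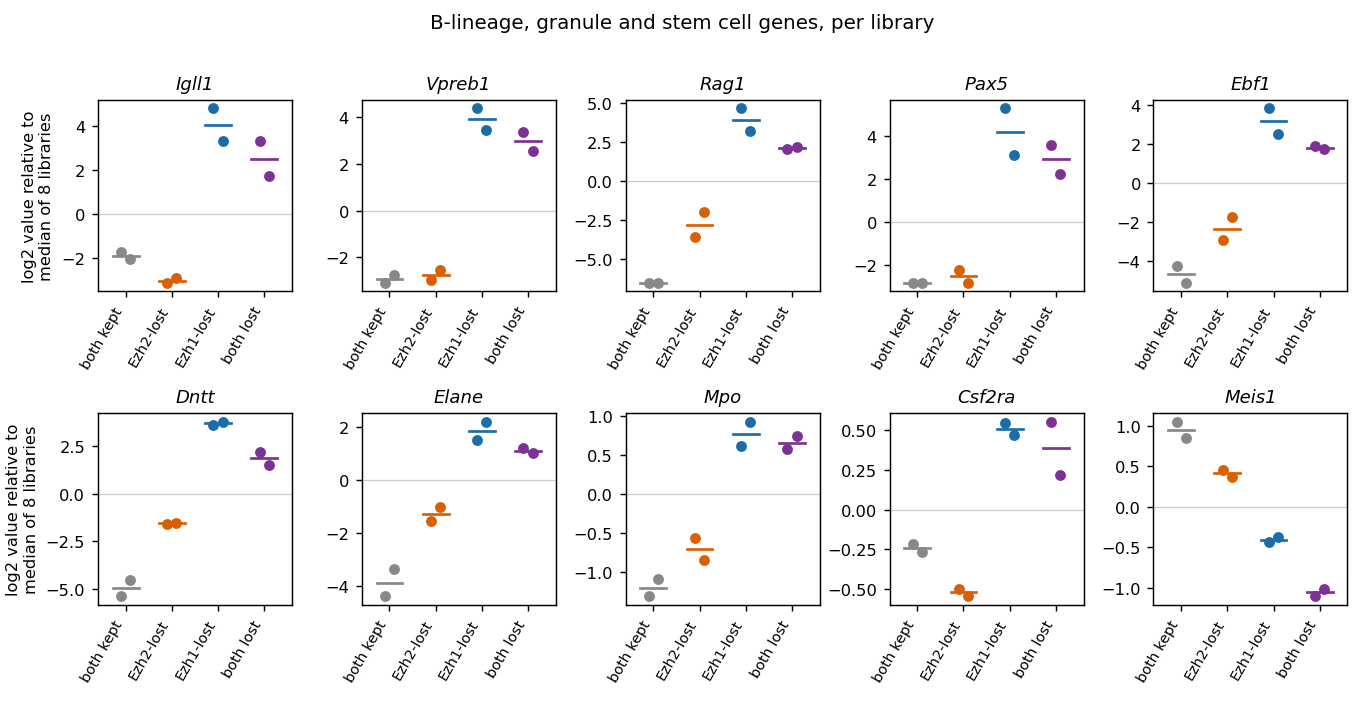
Log2 values of 10 genes in the 8 libraries, relative to each gene's median, with 1 panel per gene and its own y axis. Points are libraries and lines are group means (n = 2). In the 6 B-lineage genes and in Elane and Mpo every Ezh1-lost library lies above every Ezh2-lost library, while in Meis1 the order is turned.

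Granule proteins of promyelocytes were also lower in Ezh2-lost cells. Of 13 primary granule genes tested, 9 were called lower and 1 higher (76.9%, beside 22.5% over all genes), with a median difference of -1.20. Elane, neutrophil elastase, lay at -1.54 and -1.03 in Ezh2-lost and at 1.51 and 2.21 in Ezh1-lost libraries, which is 8.83-fold lower (difference -3.14 ± 0.42, adjusted p = 0.0104). Mpo, myeloperoxidase, lay at -0.57 and -0.84 against 0.61 and 0.92 (difference -1.47 ± 0.17, adjusted p = 0.00745). In both genes the groups did not overlap, as in 65.1% of all genes tested. The both-kept libraries were lower still in both, at -4.39 and -3.38 for Elane. Igfbp4, an insulin-like growth factor binding protein that stands in the list, was lower by -1.20 ± 0.12 (adjusted p = 0.00548). The count of lower genes was 6 and 5 without Ezh2-lost replicates 1 and 2, and 5 and 3 without Ezh1-lost replicates 1 and 2.

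Regulators of the myeloid lineage followed. Of 13 tested, 8 were called lower and 1 higher (69.2%, beside 22.5% over all genes), with a median difference of -1.0. Csf2ra, the receptor chain for GM-CSF, lay at -0.50 and -0.54 against 0.55 and 0.47 (difference -1.03 ± 0.13, adjusted p = 0.00936). Cebpd, a C/EBP transcription factor, lay at -0.81 and -0.96 against 0.72 and 0.53 (difference -1.51 ± 0.20, adjusted p = 0.00998). Gfi1, a repressor needed for neutrophil development, was lower by -1.20 ± 0.16 (adjusted p = 0.0107, and 0.0546 without Ezh1-lost replicate 2, with 0.00786 to 0.0555 over all alternatives). The count of lower genes in the list was 5 without either Ezh2-lost library or Ezh1-lost replicate 1, and 3 without Ezh1-lost replicate 2.

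Of 18 mature neutrophil genes, 4 were called lower and 0 higher, so the 22.2% called was near the 22.5% over all genes, at a median difference of -1.38. Ltb4r1, the leukotriene B4 receptor, was lower by -2.45 ± 0.28 (adjusted p = 0.00713), with -1.37 and -0.85 in Ezh2-lost and 1.19 and 1.5 in Ezh1-lost libraries. The list's median in the Ezh2-lost libraries was -1.39 in replicate 1 and -0.33 in replicate 2, so its spread within the group was wide. Without Ezh2-lost replicate 2 the median was -2.03 and 2 members were called lower, and without replicate 1 it was -1.16 with 1. Without Ezh1-lost replicates 1 and 2 the counts were 2 and 1. After quantile normalization 9 of the 18 were called lower.

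The stefin A genes on chromosome 16 held 4 of the 10 largest differences toward Ezh1-lost cells. Stefins are inhibitors of cysteine proteases, expressed in neutrophils and their precursors. BC100530 lay at -4.17 and -3.21 in Ezh2-lost and at 3.55 and 4.04 in Ezh1-lost libraries (difference -7.48 ± 0.69, adjusted p = 0.00483). BC117090 was at the floor in both Ezh2-lost libraries and at least 23.3-fold lower there, measured against a limit of 3 read pairs per library (adjusted p = 0.00469). Stfa1 was lower by -6.39 ± 0.69 (adjusted p = 0.00647), and Stfa2l1 by -6.42 ± 1.00 (adjusted p = 0.0142), with 0.00495 to 0.0693 over all alternatives and no call without any 1 of the 4 libraries compared. Stfa2l1 without those libraries had adjusted p of 0.0669 and 0.0511 for Ezh2-lost replicates 1 and 2, and 0.0566 and 0.0693 for Ezh1-lost replicates 1 and 2. These genes are near-identical copies within 1 cluster, so the split of reads between them is uncertain.

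Igll1, Pax5, Rag1 and Vpreb1, described above, and NEWGENE25 were also among the 10 largest differences toward Ezh1-lost cells. NEWGENE25, a locus on chromosome 19 named only by that symbol, lay at -1.36 and -3.32 against 4.55 and 3.57 (adjusted p = 0.00932).

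Promoters were read for the B-lineage and granule genes, since these 2 lists moved together toward Ezh1-lost cells. The sequences are the 250 bases before the start of the gene in RefSeq (GRCm38.p6, the assembly behind mm10), written 5′ to 3′ on the strand of the gene. Of the called lower members, 9 of 10 B-lineage genes and 7 of 9 granule genes had an entry. Capitals mark CAGGTG, the E-box bound by E proteins such as E2A, on either strand, in the first 3 genes, and GAGGAAGT, the core bound by PU.1, on either strand, in the last 3.
Igll1 (chr16:16863986-16864235, minus strand): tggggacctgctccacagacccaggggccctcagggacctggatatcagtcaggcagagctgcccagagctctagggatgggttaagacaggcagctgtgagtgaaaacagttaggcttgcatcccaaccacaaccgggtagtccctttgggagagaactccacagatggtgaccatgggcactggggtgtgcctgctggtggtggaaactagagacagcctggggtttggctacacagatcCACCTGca
Vpreb1 (chr16:16869256-16869505, minus strand): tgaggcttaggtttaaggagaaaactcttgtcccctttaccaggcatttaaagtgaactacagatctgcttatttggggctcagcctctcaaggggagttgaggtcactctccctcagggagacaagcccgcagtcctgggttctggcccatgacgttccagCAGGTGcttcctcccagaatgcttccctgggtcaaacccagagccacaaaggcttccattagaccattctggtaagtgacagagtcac
Rag1 (chr2:101649533-101649782, minus strand): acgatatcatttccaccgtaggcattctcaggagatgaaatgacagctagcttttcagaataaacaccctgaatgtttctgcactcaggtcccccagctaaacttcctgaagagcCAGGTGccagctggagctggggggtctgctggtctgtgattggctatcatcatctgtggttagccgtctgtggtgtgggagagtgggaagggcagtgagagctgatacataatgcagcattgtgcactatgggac
Elane (chr10:79886062-79886311, plus strand): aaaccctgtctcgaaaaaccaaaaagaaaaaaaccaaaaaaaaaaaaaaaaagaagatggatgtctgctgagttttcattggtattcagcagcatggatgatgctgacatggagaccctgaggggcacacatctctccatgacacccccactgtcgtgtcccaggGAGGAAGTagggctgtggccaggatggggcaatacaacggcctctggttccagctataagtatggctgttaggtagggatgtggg
Mpo (chr11:87793534-87793783, plus strand): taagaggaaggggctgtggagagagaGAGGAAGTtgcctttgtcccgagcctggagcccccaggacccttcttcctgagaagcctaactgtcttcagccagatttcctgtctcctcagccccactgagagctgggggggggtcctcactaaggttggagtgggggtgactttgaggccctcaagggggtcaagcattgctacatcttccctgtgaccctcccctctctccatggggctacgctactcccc
Prtn3 (chr10:79879417-79879666, plus strand): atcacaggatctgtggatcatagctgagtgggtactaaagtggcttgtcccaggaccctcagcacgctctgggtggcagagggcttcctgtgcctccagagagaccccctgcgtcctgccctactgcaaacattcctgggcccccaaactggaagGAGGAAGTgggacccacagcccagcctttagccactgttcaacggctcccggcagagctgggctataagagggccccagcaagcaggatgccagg
The E-box match begins 8 bases before the start of Igll1, 88 before that of Vpreb1 and 135 before that of Rag1. CAGGTG was present in 4 of the 9 B-lineage promoters (Cd79a, Igll1, Rag1 and Vpreb1) and in 1 of the 7 granule promoters, against 17.1% of all 27025 promoters in the table. GAGGAAGT was present in 3 of the 7 granule promoters (Elane, Mpo and Prtn3), in 0 of the 9 B-lineage promoters and in 2.44% of all promoters. Prtn3, proteinase 3, is shown for this match and was lower by -1.29 ± 0.20 (adjusted p = 0.014, and 0.0656 without Ezh1-lost replicate 2 or 0.0629 without Ezh2-lost replicate 2, with 0.0105 to 0.0656 over all alternatives).

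Other motifs were searched on both strands of the same promoters, 8 in all with these, and the lists and motifs were picked with the results known. AGGAAG, the ETS core that lies within GAGGAAGT, was in 4 of 9 B-lineage and 5 of 7 granule promoters, against 29.2% of all. An EBF palindrome, TCCC followed by its reverse complement after a gap of 2 bases, and TTGCNNAA, a C/EBP site, were in 0 of both sets, where 0.788% and 9.55% of all promoters hold them. AGATAA, which erythroid zinc finger factors bind, was in 1 and 0 promoters (10.3% of all). An interferon response element, GAAA repeated after a gap of 2 bases, was in 1 and 0 (3.04%), and a p53 core pair, CATG repeated after a gap of 6 bases, in 2 and 0 (0.507%). A match is a run of letters in the window and not a binding site.

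Macrophage genes split in the list of monocytes and macrophages, with 10 of 23 called higher in Ezh2-lost cells and 4 lower. The list had 60.9% called, beside 22.5% over all genes, at a median of 0.52. Mrc1, the mannose receptor of tissue macrophages, lay at 1.58 and 1.82 against -0.85 and -0.40, and was 5.00-fold higher (difference 2.32 ± 0.17, adjusted p = 0.00336). Ccr2, the chemokine receptor of inflammatory monocytes, went the other way, at -0.84 and -0.69 against 0.76 and 0.79 (difference -1.54 ± 0.11, adjusted p = 0.00318). Ly6c2, a surface antigen of the same monocytes, was lower too, by -1.32 ± 0.11 (adjusted p = 0.0037). Chosen after its values were seen, C1qa, a chain of complement C1q made by macrophages, differed by 3.07 ± 0.32 (adjusted p = 0.00612). In Mrc1 and C1qa both Ezh2-lost libraries lay above all 6 other libraries. The lower calls of the list numbered 2 without either Ezh2-lost library and 3 without either Ezh1-lost library.

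In the lists for T cells, NK cells, megakaryocytes, stroma and MHC class II, the members that were called were all higher in Ezh2-lost cells, and the list medians were higher in replicate 2 than in replicate 1. Of 19 T cell genes tested, 10 were called higher and 0 lower (52.6%, beside 22.5% over all genes), at a median difference of 1.80. Of 18 NK and cytotoxic genes 7 were higher (38.9%, median 2.56), and of 18 megakaryocyte and platelet genes 10 (55.6%, median 1.57). Of 18 stromal and endothelial genes 8 were higher (44.4%, median 2.24), and of 10 MHC class II genes 5 (50%, median 1.82). Each of these lists had 0 called lower. The median of each list was positive in both Ezh2-lost libraries and higher in replicate 2: 0.62 and 1.84 for T cell, 0.77 and 2.28 for NK, 0.37 and 1.32 for megakaryocyte, 0.78 and 2.03 for stromal and 0.27 and 1.4 for MHC class II genes. Without Ezh2-lost replicate 2, the called higher genes were 4 for T cell, 2 for NK, 4 for megakaryocyte, 5 for stromal and 1 for MHC class II genes, at medians of 1.39, 1.73, 1.12, 1.70 and 0.88. Leaving out Ezh1-lost replicate 2 gave 4, 1, 3, 5 and 0, and leaving out Ezh1-lost replicate 1 gave 5, 4, 1, 2 and 1. In the same order of lists, the medians without Ezh2-lost replicate 1 were 2.43, 3.18, 2.11, 2.84 and 2.58. The share of other cells in each library was not tested.

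The members with the smallest p in these lists were as follows. Pdcd1, the checkpoint receptor PD-1, lay at 2.85 and 2.87 in Ezh2-lost libraries and at its floor in both Ezh1-lost and both both-lost libraries, so it was at least 3.79-fold higher (adjusted p = 0.00378). Cd4 was higher by 2.62 ± 0.33 (adjusted p = 0.00924). Pdcd1 had values of 1.90 and 3.15 in both-kept libraries, so every library with Ezh1 kept lay above its floor. Cd3e, a chain of the T cell receptor complex, rests on about 1 read pair in Ezh1-lost against 31 in Ezh2-lost libraries, a ratio of 22.4 with an exact 95% counting interval of 3.73 to 912.2 (adjusted p = 0.0133, and 0.0527 without Ezh1-lost replicate 2, with 0.00695 to 0.0837 over all alternatives).

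Ppbp, a platelet chemokine, lay at 2.88 and 5.44 in Ezh2-lost libraries and at its floor in both Ezh1-lost libraries, at least 15.2-fold higher (adjusted p = 0.00929). It was higher in Ezh2-lost replicate 2 than in replicate 1. Pf4, which lies beside it, had 1.88 and 3.98 against -2.60 and -1.13 (difference 4.80 ± 0.84, adjusted p = 0.0187, and 0.054 without Ezh2-lost replicate 2 or 0.0731 without Ezh1-lost replicate 1, with 0.0126 to 0.0936 over all alternatives). Cdh5, the cadherin of endothelial cells, was higher by 1.99 ± 0.26 (adjusted p = 0.00977).

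Of 17 erythroid genes, 1 was called lower and 0 higher (5.88%, beside 22.5% over all genes), at a median of -0.12. Here the replicates of both groups disagreed, with list medians of -0.16 and 2.07 in Ezh2-lost and 0.01 and 1.28 in Ezh1-lost libraries. The median difference was -0.85 without Ezh2-lost replicate 2 and 1.07 without replicate 1, and no erythroid gene was called by limma in either fit, where 2 of the 17 had an unadjusted p under 0.05 with all libraries. Eosinophil genes had a median of 1.52, which fell to 0.34 without Ezh2-lost replicate 2. Of 10 tested, 3 were called higher (30%, beside 22.5% over all genes). Among them Alox15, a lipoxygenase, lay at 0.71 and 1.24 against -2.06 and -2.23 (difference 3.12 ± 0.19, adjusted p = 0.00273), and Ccr3, the eotaxin receptor, was higher by 3.04 ± 0.31 (adjusted p = 0.00597). Ear6, an eosinophil ribonuclease with close paralogs that may share its reads, differed by 7.32 ± 0.84 (adjusted p = 0.00743).

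**Figure D2:**
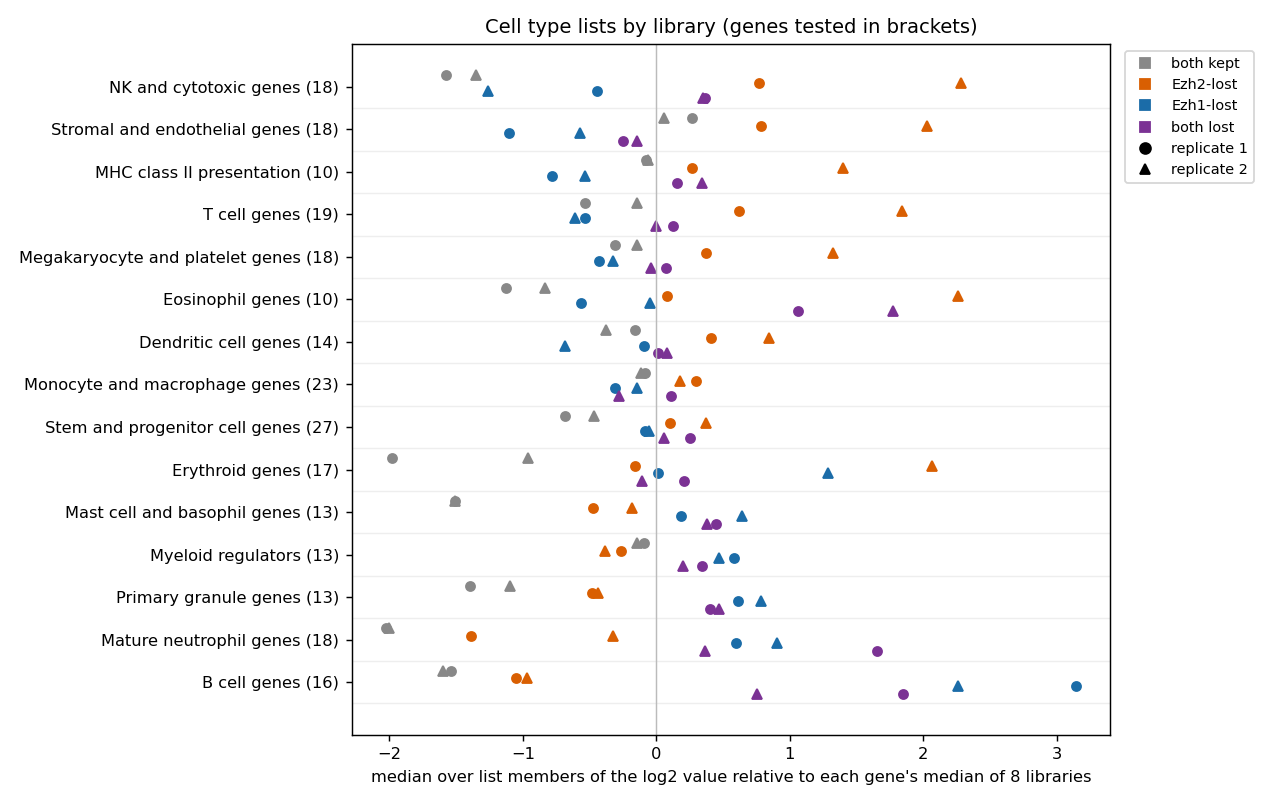
Median log2 value over the members of 15 cell type lists in each library, relative to each gene's median over 8 libraries. Colours are groups, circles replicate 1 and triangles replicate 2. B cell genes lie at -1.05 and -0.96 in Ezh2-lost and at 3.14 and 2.26 in Ezh1-lost libraries, and Ezh2-lost replicate 2 lies above replicate 1 for NK, T cell, erythroid and eosinophil genes.

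Stem and progenitor genes did not move one way. Of 27 tested, 7 were called higher and 4 lower (40.7%, beside 22.5% over all genes), at a median of 0.44. Meis1, the homeobox partner of Hoxa9 in leukaemia, lay at 0.46 and 0.37 against -0.44 and -0.37 and was 1.77-fold higher in Ezh2-lost cells (difference 0.82 ± 0.11, adjusted p = 0.00958). Tek, the angiopoietin receptor, was higher by 4.50 ± 0.63 (adjusted p = 0.0114, and 0.0513 without Ezh1-lost replicate 1, with 0.00866 to 0.0679 over all alternatives), and Myct1, a protein of stem cells and endothelium, by 4.32 ± 0.61 (adjusted p = 0.0114, and 0.0565 without Ezh1-lost replicate 2, with 0.00333 to 0.0605 over all alternatives). Kit was among the 4 lower members. The list held 6 higher and 2 lower calls without Ezh2-lost replicate 1, 3 and 2 without replicate 2, 2 and 0 without Ezh1-lost replicate 1 and 3 and 0 without replicate 2.

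Hox genes of different clusters differed in number and direction. In the Hoxa, Meis and Pbx list, 6 of 18 were called higher and 4 lower (55.6%, beside 22.5% over all genes). The list's median was -0.25 and ran from -0.41 to 0.14 over the fits without 1 library. Hoxa9, the Hoxa gene most used by leukaemias, lay at -0.06 and -0.36 against 0.33 and 0.06, a difference of -0.40 ± 0.15 that was not called (adjusted p = 0.119). Hoxa13 was called higher (adjusted p = 0.01, and 0.0507 without Ezh1-lost replicate 2, with 0.0087 to 0.0507 over all alternatives), but it was at the floor in both Ezh1-lost libraries and low enough in the others that no fold can be given. The calls were 3 higher and 3 lower without Ezh2-lost replicate 1, 3 and 0 without replicate 2, 3 and 0 without Ezh1-lost replicate 1, 2 and 1 without replicate 2, and 3 and 4 after quantile normalization.

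The Hoxb, Hoxc and Hoxd genes that were called were all higher in Ezh2-lost cells, 2 of 9 Hoxb genes (22.2%) and 3 of 9 Hoxc and Hoxd genes (33.3%), beside 22.5% called over all genes. Hoxb13 lay at 0.78 and 0.08 against -4.90 and -3.70 (difference 4.73 ± 0.50, adjusted p = 0.00618). Hoxb5 was at least 1.91-fold higher, Hoxc4 at least 4.14-fold, Hoxc5 at least 1.41-fold and Hoxc9 at least 1.11-fold, since each was at the floor in both Ezh1-lost libraries (adjusted p = 0.00685, 0.00477, 0.00901 and 0.00744). These calls also held after quantile normalization, and the list medians of 1.96 and 0.80 became 0.30 and 0 when genes at the floor were set to their limits. Hoxb13, Hoxc4 and Hoxc5 were lower in Ezh1-lost libraries than in all others.

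Fetal growth genes held several of the largest differences. Of 11 tested, 6 were called higher in Ezh2-lost cells and 2 lower (72.7%, beside 22.5% over all genes), at a median of 0.44. Igf2bp1, an RNA-binding protein of fetal tissues, lay at 1.47 and 0.77 in Ezh2-lost and at -5.27 and -6.58 in Ezh1-lost libraries. The Igf2bp1 difference was 132-fold (7.05 ± 0.51, limma adjusted p = 0.00329). The limma adjusted p was 0.15, the largest over all alternatives, when the prior variance followed the mean. That mean is of centred values and does not give the gene's level. H19, the imprinted RNA of the Igf2 locus, lay at 2.80 and 1.47 against -3.93 and -5.37 (difference 6.78 ± 0.78, adjusted p = 0.00745). Igf2, the growth factor itself, lay at 0.90 and 0.28 against -2.54 and -3.30 (difference 3.51 ± 0.33, adjusted p = 0.00485). The Ezh1-lost libraries were the low ones in all 3 genes, below the both-lost libraries too.

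Lin28b, the let-7 inhibitor of fetal blood stem cells, had another order. It lay at 2.67 and 1.86 in Ezh2-lost, -3.06 and -1.86 in Ezh1-lost, -3.06 and -2.25 in both-kept and 3.45 and 2.49 in both-lost libraries. Both groups labelled Ezh2-/- were thus high and both groups with Ezh2 kept were low (Lin28b difference 4.73 ± 0.59, adjusted p = 0.00909). The counts behind Lin28b were about 50 read pairs in Ezh2-lost and 1 in Ezh1-lost libraries, a ratio of 36.1 with an exact 95% counting interval of 6.19 to 1454. Hmga2, a chromatin protein downstream of let-7, lay at 0.33 and -0.44 against 2.57 and 1.95, a difference of -2.32 ± 0.76 that was not called (adjusted p = 0.0856).

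Among CDK inhibitors, 3 of 7 tested were called higher in Ezh2-lost cells and 0 lower (42.9%, beside 22.5% over all genes). The list's median difference was 0.03, beside 0.04 over all genes. Cdkn2a, which encodes Ink4a and Arf, lay at 1.4 and 0.97 against -1.19 and -1.44, a 5.66-fold difference (2.50 ± 0.20, adjusted p = 0.00365). Its neighbour Cdkn2b, which encodes Ink4b, lay at 1.53 and 0.64 against -0.64 and -1.95 (difference 2.39 ± 0.59, adjusted p = 0.043). The Cdkn2b call ended in each fit without 1 library, at adjusted p of 0.0513 and 0.141 without Ezh1-lost replicates 1 and 2, 0.158 and 0.0842 without Ezh2-lost replicates 1 and 2, 0.0574 without either both-lost and 0.0789 without either both-kept library, in a range of 0.0346 to 0.158. Cdkn1a, the p53 target p21, was higher by 0.94 ± 0.17 (adjusted p = 0.0208), but not without Ezh1-lost replicate 1 (0.0573) or 2 (0.0912) or Ezh2-lost replicate 1 (0.0706), with 0.0156 to 0.0912 over all alternatives.

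The 3 called CDK inhibitors were Cdkn2a, Cdkn2b and Cdkn1a, and of these Cdkn2a stayed called in each fit without 1 library. The list held 1 and 2 calls without Ezh2-lost replicates 1 and 2, and 1 without either Ezh1-lost library. Of 8 D-type cyclins, CDK partners and Rb family genes 0 were called by limma, and 1 had an unadjusted p under 0.05. Ccnd1, cyclin D1, lay at 0.21 and 0.98 against -0.36 and -0.39, a difference of 0.97 ± 0.27 (adjusted p = 0.0584, unadjusted p = 0.0148). Mitosis and DNA replication genes had median differences of 0.11 and 0.13, with 0 of 21 and 1 of 22 called by limma, where 4 of the 21 mitosis genes had an unadjusted p under 0.05.

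Among p53 targets, 7 of 21 were called higher and 0 lower (33.3%, beside 22.5% over all genes), at a median of 0.51. Zmat3, an RNA-binding p53 target, lay at 0.48 and 0.57 against -2.45 and -2.15 (difference 2.83 ± 0.28, adjusted p = 0.00542). Pmaip1, the BH3-only protein Noxa, was higher by 1.55 ± 0.10 (adjusted p = 0.00306), and Bbc3, the BH3-only protein Puma, by 0.95 ± 0.10 (adjusted p = 0.00599). For Zmat3 and Bbc3 the Ezh1-lost libraries were below all 6 others. The count was 4 and 5 without Ezh2-lost replicates 1 and 2, and 5 and 3 without Ezh1-lost replicates 1 and 2.

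Of the 6 core subunits of Polycomb repressive complex 2, 2 were called higher, Ezh1 and Suz12, and 0 lower. The share called was 33.3%, beside 22.5% over all genes, at a median difference of 0.27. Suz12, the scaffold subunit, lay at 0.25 and 0.32 against -0.41 and -0.25 (difference 0.62 ± 0.10, adjusted p = 0.0148), and was not called without Ezh1-lost replicate 1 (0.0596) or Ezh2-lost replicate 2 (0.0604), with 0.0107 to 0.074 over all alternatives. Of 5 accessory subunits tested, Aebp2 was higher by 0.85 ± 0.08 (adjusted p = 0.00536).

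Of 20 subunits of Polycomb repressive complex 1, 3 were called higher and 2 lower, which is 25% called beside 22.5% over all genes, at a median of 0.05. Bmi1, a core ring-finger subunit, lay at 0.51 and 0.41 against -0.42 and -0.41 (difference 0.87 ± 0.11, adjusted p = 0.00834). Cbx6 was higher by 1.35 ± 0.14 (adjusted p = 0.0059) and is a chromodomain subunit of the kind that reads the methyl mark. For Bmi1, as for Lin28b and Cdkn2a, both groups labelled Ezh2-/- lay above both groups with Ezh2 kept.

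**Figure D3:**
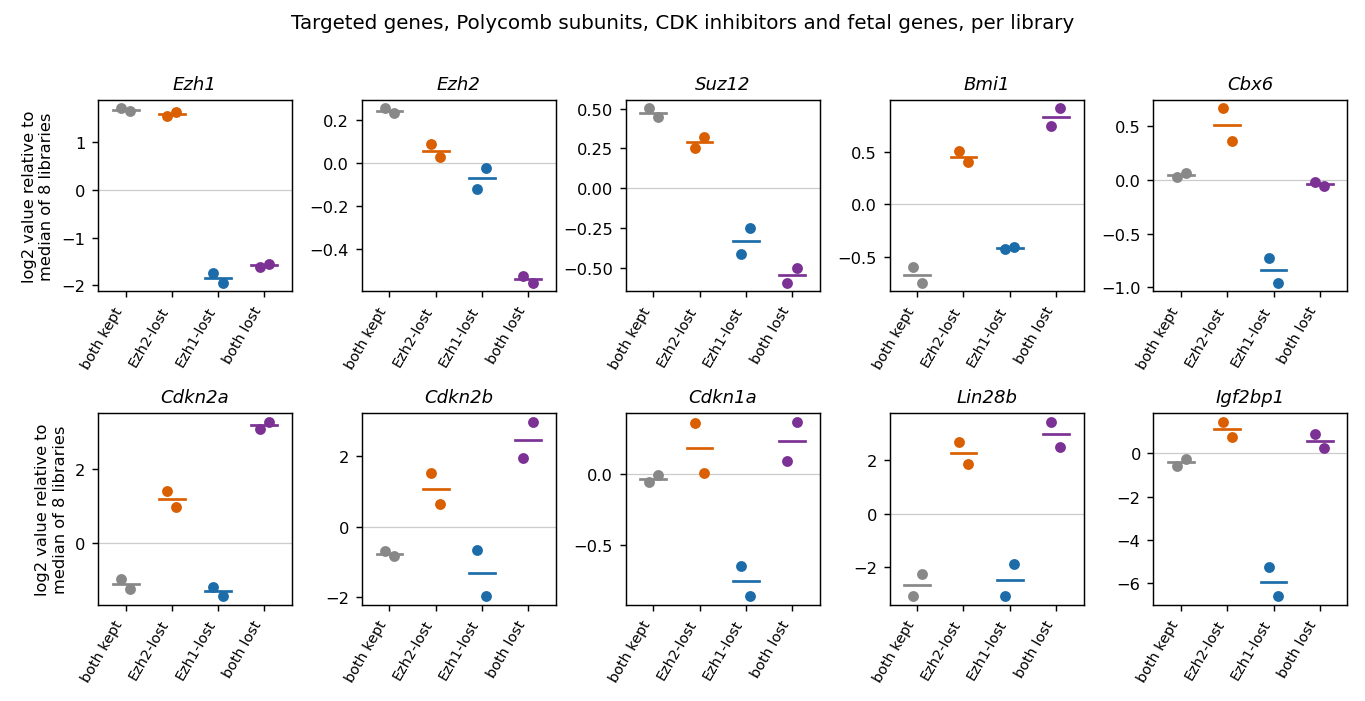
Log2 values of 10 genes in the 8 libraries, relative to each gene's median, with 1 panel per gene and its own y axis. Points are libraries and lines are group means (n = 2). Ezh1 separates by Ezh1 genotype, Ezh2 does not fall below the Ezh1-lost libraries in Ezh2-lost cells, and Cdkn2a, Bmi1 and Lin28b are high in both groups labelled Ezh2-/-.

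Of 35 interferon-stimulated genes, 6 were called higher and 1 lower, so 20% were called beside 22.5% over all genes. The count is near that of all genes, and the list's median difference was 0.46. Rsad2, the antiviral enzyme viperin, lay at 0.91 and 1.43 against -1.10 and -0.91 (difference 2.18 ± 0.20, adjusted p = 0.00469). Ifi27l2a was higher by 1.35 ± 0.19 (adjusted p = 0.0109, and 0.0539 without Ezh1-lost replicate 2, with 0.00585 to 0.0757 over all alternatives), at 0.54 and 1.09 against -0.54 and -0.54. Both genes were still higher in both-lost libraries, at 2.35 and 2.29 for Rsad2 and 2.38 and 2.37 for Ifi27l2a. The list had 4 higher and 0 lower calls without Ezh2-lost replicate 1 or Ezh1-lost replicate 1, 2 and 4 without Ezh2-lost replicate 2 and 2 and 0 without Ezh1-lost replicate 2.

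The genes with the largest differences toward Ezh2-lost cells came from no single list. Scara3, a scavenger receptor, lay at 1.63 and 1.51 against -6.57 and -5.38 (difference 7.54 ± 0.64, adjusted p = 0.00396). Nkx6-2, a homeobox factor of the nervous system, lay at 1.23 and 0.86 against -5.25 and -6.68 (difference 7.01 ± 0.49, adjusted p = 0.00313). Both genes, like Igf2bp1, lay between -0.57 and 1.92 in both-kept libraries, so the Ezh1-lost libraries were the low ones. C6, a component of the complement pore, Tnfsf18, the ligand GITRL, and Chn1, a Rac GTPase-activating protein, were at the floor in both Ezh1-lost libraries and at least 11-fold, 10.9-fold and 10.4-fold higher (adjusted p = 0.00274, 0.00306 and 0.00217). Chn1 was not called when the prior variance followed the mean (limma adjusted p = 0.628, the largest over all alternatives). That mean is of values centred on each gene's median, so it does not give the gene's level. Dnajc6, the clathrin uncoating cofactor auxilin, lay at 3.01 and 4.96 against -1.32 and -3.02 (adjusted p = 0.014, and 0.062 without Ezh1-lost replicate 2 or 0.0556 without Ezh2-lost replicate 2, with 0.00754 to 0.0742 over all alternatives).

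The other 2 groups place each difference, and this was described without a test. For each gene the mean of both-kept and of both-lost libraries was assigned to the nearer of Ezh2-lost and Ezh1-lost. Genes whose both-kept mean was nearer Ezh2-lost and whose both-lost mean was nearer Ezh1-lost, so that the libraries split by Ezh1 genotype, made up 1397 of the 1844 called lower genes (75.8%) and 930 of the 2224 called higher genes (41.8%). Over all genes tested, called or not, they made up 44.6% of the lower and 40.4% of the higher ones. The B-lineage list fell mostly there, with 9 of its 10 lower genes, as did 8 of 9 lower primary granule genes.

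Among the called higher genes, 733 (33.0%) had both other groups nearer Ezh2-lost, so that Ezh1-lost stood alone, against 24.5% of all higher genes tested. A further 264 higher (11.9%) and 72 lower genes (3.90%) split by Ezh2 genotype and tamoxifen, against 16% and 16.2% of all genes of those directions. Ezh2-lost stood alone in 297 higher (13.4%) and 177 lower genes (9.60%), against 19.1% and 19.4%. Called lower genes thus leaned to the split by Ezh1 genotype more than the tested genes as a whole did.

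**Figure D4:**
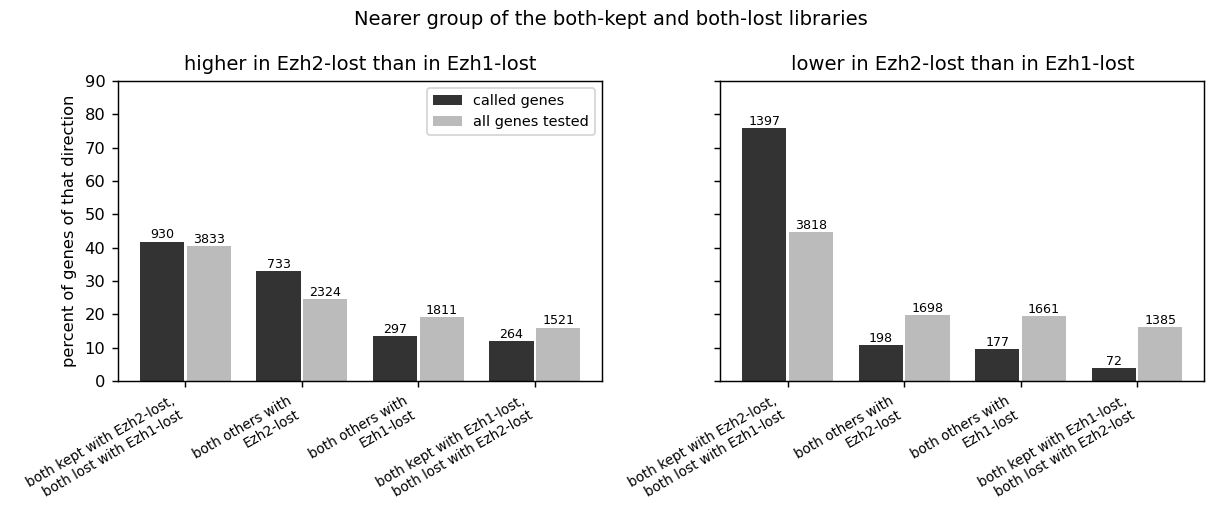
Percent of genes in each of 4 placements of the both-kept and both-lost means, for called genes (dark bars) and all genes tested (pale bars) of the same direction, with the number of genes above each bar. The tallest bar is 75.8% of the called lower genes, where both-kept lay nearer Ezh2-lost and both-lost nearer Ezh1-lost.

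The genes with the smallest p in each placement were these. Cyp2b9, a cytochrome P450, and Tex19.2, a germ line gene, split by Ezh1 genotype: Cyp2b9 was at its floor in all 4 libraries with Ezh1 kept and at least 3.66-fold lower in Ezh2-lost than in Ezh1-lost libraries (adjusted p = 0.000527), and Tex19.2 was at its floor in all 4 libraries without Ezh1 and at least 1.56-fold higher (adjusted p = 0.00076). Arxes1, a membrane protein gene, Zc3h12c, an RNA-binding protein, and AI607873 were placed by the nearer mean in the split by Ezh2 genotype and tamoxifen. Zc3h12c was graded, since its libraries with Ezh1 kept also lay above those without it under each Ezh2 label. Zc3h12c lay at 1.44 and 1.34 in Ezh2-lost, 0.36 and 0.41 in both-lost, -0.36 and -0.52 in both-kept and -1.53 and -1.79 in Ezh1-lost libraries (adjusted p = 0.00107).

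Ezh1-lost stood alone for Fam184a, Mlxipl and Epcam. Mlxipl, the carbohydrate response factor ChREBP, lay at -3.95 and -4.07 in Ezh1-lost libraries and between -0.18 and 0.70 in the 6 others (adjusted p = 0.00106). Epcam, an epithelial adhesion molecule, lay at -2.71 and -2.92 there and between -0.16 and 0.47 elsewhere (adjusted p = 0.000912). Ezh2-lost stood alone for Ocln, the tight junction protein occludin, Clec4a1 and Cd200r2. Clec4a1, a lectin receptor of myeloid cells, lay at 1.99 and 2.07 in Ezh2-lost libraries and at most at 0.45 elsewhere (adjusted p = 0.00106).

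By position, chromosome 15 stood out. Over its 735 genes tested the median difference was 0.29, against -0.04 to 0.09 on the other chromosomes, and 207 genes were called (28.2%), 159 of them higher. Of these genes, 612 were counted as above the floor in all 8 libraries. Their median value was 0.14 and 0.05 in Ezh2-lost and 0.11 and 0.15 in both-kept libraries. It was -0.15 and -0.14 in Ezh1-lost and -0.02 and -0.10 in both-lost libraries. All 4 libraries with Ezh1 kept were thus above all 4 without it. The median difference was positive in 10 of 11 windows of 10 Mb and -0.21 in the window of 60 to 70 Mb, which held 18 genes. It ran from 0.26 to 0.33 over the fits without 1 library and was 0.24 after quantile normalization. The called higher genes of the chromosome numbered 84 and 91 without Ezh2-lost replicates 1 and 2, 77 and 70 without Ezh1-lost replicates 1 and 2, and 108 after quantile normalization. The number of copies of the chromosome was not tested. Cbx6, C6, Ly6c2 and the Hoxc genes named above lie on chromosome 15.

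Genes near the targeted loci were looked at in the same way. Within 5 Mb of Ezh1, 61 of 226 genes were called (27%), 37 higher and 24 lower, at a median difference of 0.16. Within 5 Mb of Ezh2, 27 of 78 were called (34.6%), 18 higher and 9 lower, at a median of 0.10. Both shares lay above the 22.5% over all genes.

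**Figure D5:**
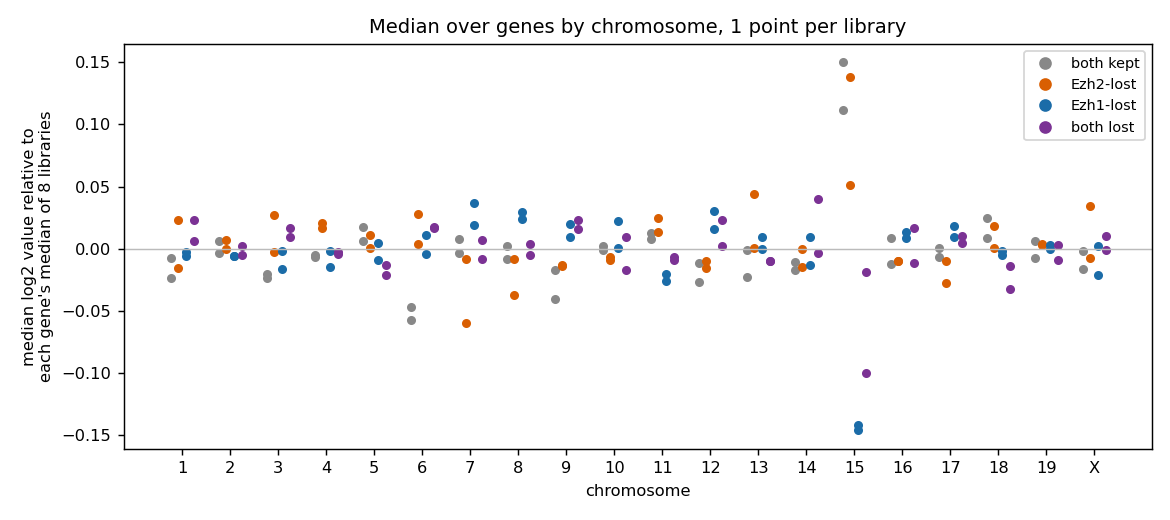
Median log2 value over the genes of each chromosome counted as above the floor in all 8 libraries, 1 point per library, coloured by group. On chromosome 15 the 4 libraries with Ezh1 kept lie between 0.05 and 0.15 and the 4 without it between -0.15 and -0.02.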

How the data were processed

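Gene-level RNA sequencing values were taken from the larger of 2 deposited tables. The authors deposited log2 normalized reads (normalized, per the file headers), which proved to have a floor of 1 normalized unit and to be centred on each gene's median (largest absolute median 9.55e-07). The build is mm10 per the submitters' processing notes; aligner and counter: not given in the sources used here. TruSeq libraries came from 1 µg of total RNA per the labels. The smaller table was not used here.

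The floor of a row was taken as known where 2 or more libraries shared its minimum within 2e-06. Rows without such a tie were counted as above the floor in all 8 libraries, although 1 library may lie at the floor. In low rows 67.1% to 73.8% of values lay within 0.01 of whole reads, mostly even numbers, so read pairs were counted; 1 read was worth 0.746 (Ezh2-lost replicate 1, the deepest) to 1.24 normalized units (Ezh1-lost replicate 1). Whole reads were not recovered for most genes, so no count test was run. Lower limits and intervals cover counting error only. Rows with every library at the floor (12530) or 1 above it (993) were left out.

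limma 3.58.1 in R 4.3.3 fitted 1 coefficient per group over all 8 libraries, without trend or block (residual degrees of freedom 4, prior 1.24), with Benjamini-Hochberg adjustment over 18051 genes. Data of 18051 genes were simulated for this comparison, of which 17851 were unchanged. Of 113 genes changed by 2 on the log2 scale 77 were called, of 87 changed by 3 it was 68, and 15 calls were false. The simulated noise was normal and had no floor, and fewer genes changed than were called in the data. These numbers thus do not give the error rate of the calls made here. Python 3.11.15, pandas 2.3.3 and matplotlib 3.10.9 were used for tables and plots. RefSeq promoters matched 76.0% of tested genes by gene identifier. The members and the 36 gene lists were chosen with earlier results of these data known. Named genes are Ezh1 and Ezh2, the 10 largest differences each way among called genes with separate groups, with the higher group above the floor and its mean above 0, up to 3 called members of each list and placement by smallest p, and 11 fixed genes (Cdkn2a, Cdkn2b, Cdkn1a, Ccnd1, Bmi1, Lin28b, Igf2bp1, Hmga2, Kit, Meis1 and Hoxa9); predicted genes are counted only. Some genes that the rule picks are not reported here.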

Additional observations from a re-analysis of the deposited data

How the results depend on the processing

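The count of 4068 called genes stayed within 1.5 times under 10 of 11 settings that kept all libraries, between 3152 and 4389. It moved to 1009 (692 higher, 317 lower) when only the 4 libraries compared were fitted, which leaves 2 residual degrees of freedom; 901 of these were among the 4068. Over the 8 fits without 1 library the count ran from 1482 to 3101, the higher genes from 973 to 1792 and the lower genes from 509 to 1324. A left-out library of the other groups acts only through the fitted spread, and either library of such a group gives the same result. Quantile normalization gave 1613 higher and 2308 lower. A fit with the replicate number as a block called 3152 genes (1847 higher, 1305 lower); the numbers are names only, and deviations of same-numbered Ezh2-lost and Ezh1-lost libraries correlated at 0.08. Of 105 called named genes, 52 were called under every alternative and 69 in all 8 fits without 1 library, and none of the named genes changed sign. Medians of 29 of 37 sets (36 lists and chromosome 15) kept their sign throughout.

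Floors limit low genes, since the Ezh1-lost libraries were shallowest and 251 called genes were at the floor in both of them. Values at a floor do not vary, which lowers the fitted spread. Depth in reads per library is unknown, and levels between genes cannot be compared. Each group has 2 libraries of unknown origin.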

Other observations

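Sex-linked genes were read as a check of the libraries. Xist was counted as above the floor in all 8 libraries. Of 7 Y-linked genes, 4 (Ddx3y, Eif2s3y, Uty and Usp9y) were above the floor only in both-kept replicate 1. Of the other 3, Kdm5d was counted as above the floor in all 8 libraries, and Zfy1 and Zfy2 in none. For Kdm5d, as for Xist, no 2 libraries tied at the lowest value, so 1 library at the floor would go unseen. Both-kept replicate 1 also had Sox2 above the floor, as no other library did, and Sox9 at 7.5, and it was the only library above the floor in 250 rows, against 58 to 173 for each of the others. It enters the contrast only through the spread, the choice of rows tested and the placement of the both-kept mean.

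The remaining lists gave these counts, beside 22.5% called over all genes. Of 22 cholesterol synthesis genes 3 were called higher in Ezh2-lost cells. Of 13 germ line and meiosis genes 1 was called higher, Piwil2, a piRNA pathway protein, by 1.74 ± 0.22 (adjusted p = 0.00942). Among 44 developmental transcription factors tested, 7 were called higher and 2 lower, or 20.5%. Pax8 was lower by -2.61 ± 0.21 (adjusted p = 0.00376), with -1.14 and -0.88 in Ezh2-lost and 1.35 and 1.84 in Ezh1-lost libraries. The MHC class I list of 17 held 2 higher and 1 lower call. The list of Moz fusion partners and their acetyltransferase complex held 1 lower call among 7. By limma 0 of 2 H3K27 demethylases and 0 of 3 sex-linked genes tested were called, and 1 gene of each list had an unadjusted p under 0.05.

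Of 14 dendritic cell genes, 5 were called higher and 0 lower (35.7%), at a median difference of 1.18. The calls numbered 2 without either Ezh2-lost library or Ezh1-lost replicate 2, and 6 without Ezh1-lost replicate 1. Among them Cd7, a lymphoid and plasmacytoid marker, was higher by 3.39 ± 0.30 (adjusted p = 0.00455) and Itgax, the integrin CD11c, by 1.39 ± 0.13 (adjusted p = 0.00479).

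Of 13 mast cell and basophil genes, 2 were called higher and 3 lower (38.5%), at a median of -0.96. Its called members thus went both ways. Mcpt8, a basophil protease, was lower by -1.35 ± 0.17 (adjusted p = 0.00864). In each fit without 1 of the 4 libraries compared, 1 gene of the list was called higher and 2 lower.

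Of 22 imprinted genes, 5 were called higher and 2 lower (31.8%), at a median of 0.14, and 2 of the higher ones were H19 and Igf2. The calls were 3 higher and 0 lower without Ezh2-lost replicate 1, 3 and 1 without Ezh2-lost replicate 2 or Ezh1-lost replicate 1, and 4 and 0 without Ezh1-lost replicate 2.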
